A study of Homo sapiens with 6 samples.

Results

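The genes described here encode the proteasome. They are the coding genes whose symbols consist of PSM, a letter from A to G and a number, and 48 of the 19905 coding genes among the 60480 identifiers in the table carry such a symbol. They were placed by role into the core (16 genes), the immunoproteasome subunits (3 genes), the regulatory particle (17 genes), the assembly factors (7 genes), and the activators and an inhibitor of the core (5 genes). RNA-seq was performed in OE-19 cells, an established line of adenocarcinoma of the esophagogastric junction (AEG), grown in RPMI1640 medium with fetal bovine serum. The control group comprised 3 libraries from cells with a control knockdown (shControl, whose columns are headed Puro), and the IGF2BP3 KD group comprised 3 libraries from cells carrying shIGF2BP3, an shRNA against the RNA-binding protein IGF2BP3. The labels do not say whether the 3 libraries of a group came from separate cultures or carry the same shRNA. P-values set the group difference against the spread between libraries, estimated with information shared across all genes tested, and that spread may be technical. In bulk RNA, fewer cells that express a gene and less of its RNA per cell cannot be told apart.

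The proteasome degrades proteins that carry a chain of ubiquitin. Its core is a barrel of stacked rings, in which alpha subunits form the gated outer rings and beta subunits form the inner rings that hold the cutting sites. The regulatory particle caps the barrel, recognises ubiquitin, removes it, and uses a ring of ATPases to unfold the substrate and feed it into the core. In cells exposed to interferon, 3 inducible beta subunits can replace the constitutive catalytic ones to form the immunoproteasome, which is known for producing peptides for presentation to T cells.

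Counts per library totalled 53424071 to 69989087, with mitochondrial genes at 8.67% to 9.06% of counts, and levels are given as CPM, counts brought to a common library size with TMM scaling, which allows for differences in composition. *IGF2BP3* itself had 7416, 7363 and 6532 counts in control libraries 1, 2 and 3 and 777, 792 and 794 counts in IGF2BP3 KD libraries 1, 2 and 3. Its log2 fold change was -3.03 (standard error, SE, 0.06, adjusted p = 3.1e-10, edgeR), which leaves 12.2% of the control level. All 6 epithelial markers examined (*EPCAM*, *KRT8*, *KRT18*, *KRT19*, *CDH1* and *ERBB2*) were expressed in each library, and *ERBB2* reached 12478 to 14653 CPM. Among markers of other cells, *CD3E* and *COL1A2* had 0 counts in each library, *PTPRC*, *PECAM1* and *VWF* stayed at or below 0.478 CPM, *PDGFRB* lay at 0.259 to 0.619 CPM, and *COL1A1* was higher in IGF2BP3 KD cells (log2 fold change 0.50) at 20.5 to 33.5 CPM over all libraries. *CD68* and *LYZ* are given with the immunoproteasome subunits.

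IGF2BP3 KD cells had modestly lower mRNA levels of 9 of the 31 tested genes of the core and the regulatory particle. The assembly chaperone gene *PSMG1* was markedly lower, and the activator gene *PSME4* was also lower (log2 fold change -0.43). The inhibitor gene *PSMF1*, the immunoproteasome gene *PSMB10* and the activator gene *PSME1* were higher, with *PSMB9* just inside the threshold. With 1 library left out, the call of *PSMF1* held in all 6 fits, those of *PSMB10* and *PSME1* in 3 and that of *PSMB9* in 1. Of the 48 members, 46 had enough counts to be tested, 14 were lower (30.4% of those tested), 4 were higher (8.70%) and 28 passed in neither direction. The threshold was an adjusted p under 0.05, which 20.4% of the 19778 genes tested passed, 10.6% as lower and 9.87% as higher genes. Because low counts limit calls, coding genes that averaged 10 CPM or more are a closer background, and of these 9513 genes 19.7% were lower and 16.6% were higher. At that level stood 44 members, of which 14 were lower and 3 were higher. The median log2 fold change of the 46 members was -0.08, compared with 0.01 for all genes tested and -0.01 for coding genes that averaged 10 CPM or more. It was below 0 in 35 of the 46, compared with 48.6% of all genes tested. At an unadjusted p under 0.05, 21 members were lower and 5 were higher, compared with 15.3% and 15.5% of all genes.

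**Figure D1:**
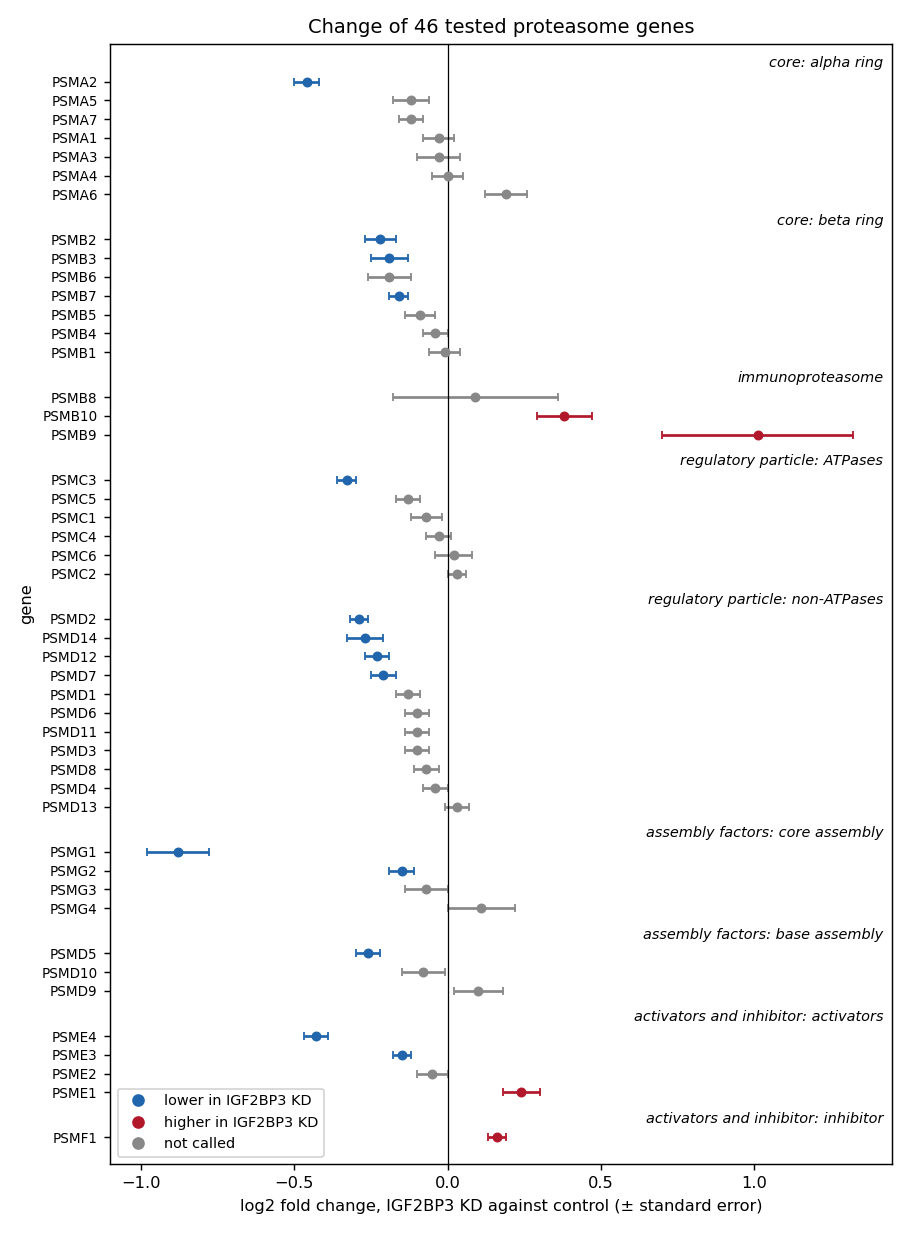
Log2 fold change of IGF2BP3 KD against control (x axis, ± standard error, 3 libraries per group) for the 46 tested proteasome genes, grouped by role. Core, regulatory particle and assembly genes with a call all lie left of 0, the calls of *PSMB9* and *PSMB10* lie right of it, and *PSMG1* at -0.88 is farthest left.

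The sizes of these changes were small. Apart from *PSMG1*, the lower members kept between 72.8% and 90.3% of the control level. The 28 members without a call had log2 fold changes between -0.19 and 0.19, with standard errors of up to 0.27 for *PSMB8*. Summed over all members, expression was 4439 ± 50.7 CPM in control cells and 4085 ± 43.0 CPM in IGF2BP3 KD cells (SD, n = 3), without overlap between the groups. The sum fell by 7.96%. A sum gives most weight to the most abundant genes. Its change was -6.62% for the core, -9.21% for the regulatory particle, -12.03% for the assembly factors and -4.71% for the activators and the inhibitor, and it was 29.4% higher for the immunoproteasome subunits. None of these sums overlapped between the groups.

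Levels between genes can be compared only per length, and are given here as CPM per kb of the gene's annotated exons. On that scale the control level ranged from 0.186 for *PSMB9* to 108 for *PSMA7* with a median of 15.5 over the 46 tested members. *PSMA7*, *PSMB7*, *PSMC3* and *PSMD2* were the highest on this scale, the last 3 at 74.8, 74.5 and 73.7 CPM per kb. The core and the regulatory particle were present throughout, with every tested member of both at 8.91 CPM per kb or more. Among the 46 tested members *PSMB8* and *PSMB9* were the lowest, and *PSMB10* at 6.56 was below each tested core subunit. *PSMG1* moved most in this order, from rank 30 of 46 in control cells to rank 42 in IGF2BP3 KD cells. *PSMD3* and *PSMB3* lie 293 kb and 935 kb from the start of *ERBB2* on chromosome 17, and took ranks 21 and 11 of 46. Annotated exons that OE-19 cells do not use make a level per kb too low, so the order of genes, also at the top, is uncertain. The exons of *PSMA6*, at rank 32 of 46, cover 6506 bases, compared with 1023 in its longest coding transcript. The order was not computed per kb of coding transcript.

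**Figure D2:**
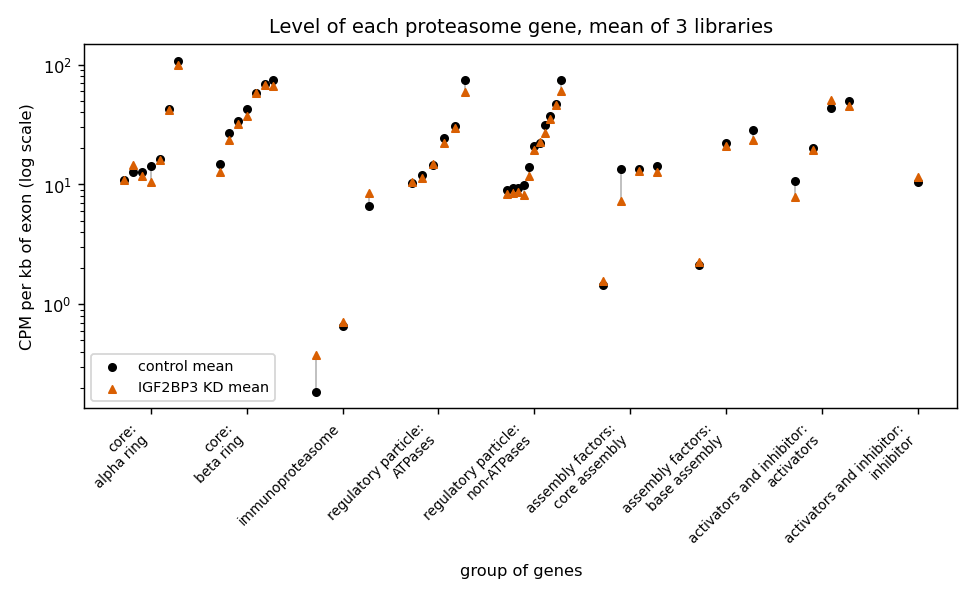
Mean level of each of the 46 tested proteasome genes in CPM per kb of exon (y axis, log scale) in control cells (circles) and IGF2BP3 KD cells (triangles), by role. Levels span 0.186 to 108 in control cells, with *PSMB9* and *PSMB8* at the bottom.

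In the alpha ring, 1 of 7 tested genes was lower and none was higher. Of coding genes that averaged 10 CPM or more, 19.7% were lower and 16.6% were higher. *PSMA2*, a subunit of the ring that forms the gate, had 119, 120.4 and 121 CPM in control libraries 1, 2 and 3 and 84.75, 90.1 and 87.1 CPM in IGF2BP3 KD libraries 1, 2 and 3. The groups were far apart, and the log2 fold change was -0.46 (SE 0.04, adjusted p = 8.9e-06, edgeR). The other alpha genes lay between -0.12 and 0.19. *PSMA8*, a form of the alpha ring known from the male germline, had 0 counts in each library, which allows up to 0.0429 to 0.0562 CPM (3 counts, counting error only).

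*PSMA6* had the highest log2 fold change of the core at 0.19 (SE 0.07, adjusted p = 0.089), but its counts could not be separated from those of a neighbour. *RP11-561B11.2* (ENSG00000258790) shares 919 exonic bases with *PSMA6* on the same strand of chromosome 14 in GENCODE v44. This neighbour had 32.0, 7.08 and 39.3 CPM in control libraries and 8.02, 1.80 and 3.54 CPM in IGF2BP3 KD libraries. It was itself called lower (log2 fold change -2.56, SE 0.59, adjusted p = 9.35e-03, edgeR). That call held in 5 of the 6 fits with a library left out. The control libraries with the most *RP11-561B11.2* had the least *PSMA6*. *PSMA6* itself had 80.02, 94.1 and 74.7 CPM in control libraries and 93.8, 94.2 and 95.3 CPM in IGF2BP3 KD libraries. Their sum was 112, 101 and 114 CPM in control libraries and 102, 96.0 and 98.8 CPM in IGF2BP3 KD libraries, and its log2 fold change was -0.14 (SE 0.05, adjusted p = 0.066, edgeR). The direction for *PSMA6* thus turned when the overlapping gene was added, a step chosen after the values were seen.

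**Figure D3:**
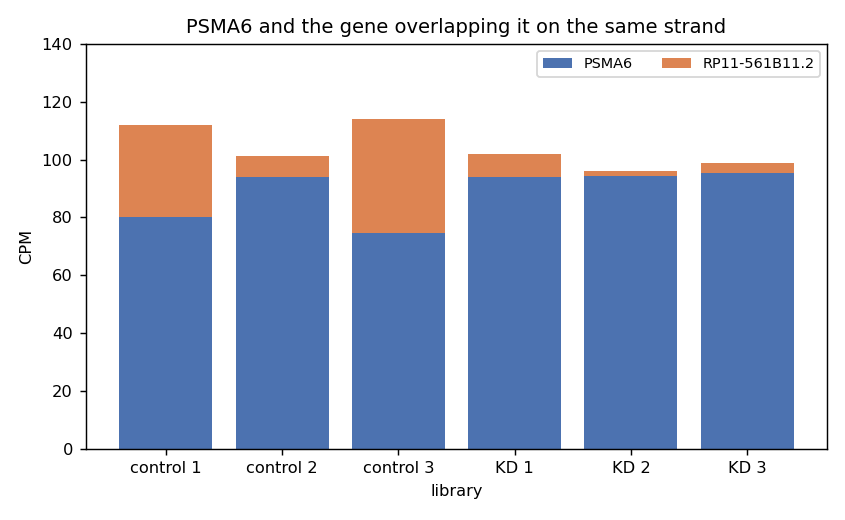
CPM of *PSMA6* (lower part of each bar) and of *RP11-561B11.2*, which overlaps it on the same strand (upper part), in each of the 6 libraries. The neighbour takes 7.08 to 39.3 CPM in control libraries and 1.80 to 8.02 CPM in IGF2BP3 KD libraries, and *PSMA6* is lowest in control library 3, where the neighbour is highest.

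In the beta ring, 3 of 7 tested genes were lower and none was higher, beside 19.7% and 16.6% of coding genes at that level. *PSMB7*, which carries the trypsin-like cutting site, had 132, 135 and 135 CPM in control libraries and 120.3, 119 and 119.5 CPM in IGF2BP3 KD libraries (log2 fold change -0.16, SE 0.03, adjusted p = 3.8e-03). *PSMB2*, a structural subunit without a cutting site, had 66.2, 65.0 and 68.6 CPM in control libraries and 55.6, 57.4 and 58.9 CPM in IGF2BP3 KD libraries (-0.22, SE 0.05, adjusted p = 6.6e-03). *PSMB3*, a further structural subunit, had 53.6, 50.2 and 46.1 CPM in control libraries and 42.4, 44.7 and 44.2 CPM in IGF2BP3 KD libraries (-0.19, SE 0.06, adjusted p = 0.048). For all 3 genes every control library was above every IGF2BP3 KD library. The call for *PSMB3* held only when control library 3 was left out and was lost without any other single library, with an adjusted p of up to 0.16.

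The other constitutive catalytic genes did not pass the test. *PSMB5*, which carries the chymotrypsin-like site, had 49.96, 53.3 and 54.5 CPM in control libraries and 50.4, 48.8 and 48.9 CPM in IGF2BP3 KD libraries (-0.09, SE 0.05, adjusted p = 0.27). *PSMB6*, with the caspase-like site, had 39.6, 41.7 and 36.3 CPM in control libraries and 36.8, 34.1 and 32.1 CPM in IGF2BP3 KD libraries (-0.19, SE 0.07, adjusted p = 0.082). Both pairs of groups overlapped. With DESeq2 the adjusted p of *PSMB6* was 0.035, so its call depended on the method. *PSMB11*, the beta subunit of the thymus proteasome, had 1 count in IGF2BP3 KD library 3 and 0 in the others and was not tested.

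Of the 3 immunoproteasome subunits, 2 were higher and none was lower, beside 9.87% and 10.6% of all genes tested. *PSMB10*, the inducible counterpart of *PSMB7*, had 11.7, 9.73 and 10.5 CPM in control libraries and 13.6, 14.5 and 13.5 CPM in IGF2BP3 KD libraries. The groups did not overlap, and the log2 fold change was 0.38 (SE 0.09, adjusted p = 0.014, edgeR). Without control library 2, control library 3 or IGF2BP3 KD library 2 the adjusted p was 0.066, 0.055 and 0.067. With offsets that remove each library's trend on GC content, the log2 fold change was 0.32 and the adjusted p 0.0504. DESeq2 gave an adjusted p of 7.2e-03. *PSMB10* shares 640 exonic bases with *CTC-479C5.12* on the same strand, which had a log2 fold change of -1.13 and was not called. With both summed the log2 fold change was 0.34 (adjusted p = 0.020, edgeR).

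*PSMB9*, the inducible counterpart of *PSMB6*, was expressed at a low level, with 55, 31 and 36 counts in control libraries and 61, 72 and 92 counts in IGF2BP3 KD libraries. This corresponds to 0.803, 0.445 and 0.615 CPM in control libraries and 1.13, 1.16 and 1.46 CPM in IGF2BP3 KD libraries, without overlap between the groups. Its log2 fold change was 1.01 (SE 0.31, adjusted p = 0.041, edgeR). This call held when control library 1 was left out and was lost without each of the other 5 libraries, at adjusted p of up to 0.14 and log2 fold changes of 0.81 to 1.07. DESeq2 gave an adjusted p of 0.0505. *PSMB9* shares 174 exonic bases with *PSMB8-AS1* on the same strand, and with both summed the log2 fold change was 0.90 (adjusted p = 0.063).

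*PSMB8*, the inducible counterpart of *PSMB5*, had 2.26, 2.68 and 1.98 CPM in control libraries and 2.22, 3.48 and 1.68 CPM in IGF2BP3 KD libraries. The groups overlapped widely and IGF2BP3 KD library 2 stood above the rest. The log2 fold change was 0.09 (SE 0.27, adjusted p = 0.87), and it was -0.25 without IGF2BP3 KD library 2.

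The balance between inducible and constitutive catalytic subunits was computed in each library as the share of *PSMB8*, *PSMB9* and *PSMB10* in the summed level of these 3 and *PSMB5*, *PSMB6* and *PSMB7*, in CPM per kb. The share was 5.74%, 4.73% and 5.06% in control libraries and 6.96%, 7.81% and 7.10% in IGF2BP3 KD libraries. The mean was 5.18% ± 0.512 in control cells and 7.29% ± 0.457 in IGF2BP3 KD cells (SD, n = 3). The groups did not overlap and differed by 2.11 percentage points, or by 1.85 to 2.39 points with any 1 library left out. The share is a score over chosen genes and was not tested. By pair, *PSMB10* made up 8.07% ± 0.802 of *PSMB10* and *PSMB7* in control cells and 11.3% ± 0.470 in IGF2BP3 KD cells. *PSMB9* made up 0.688% ± 0.209 of *PSMB9* and *PSMB6* in control cells and 1.57% ± 0.325 in IGF2BP3 KD cells. The share of *PSMB8* in *PSMB8* and *PSMB5* overlapped between the groups, at 1.92% ± 0.304 and 2.17% ± 0.811. In both groups the mRNA of the constitutive catalytic subunits thus made up most of the level, since even the highest library held 7.81% of the inducible forms.

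**Figure D4:**
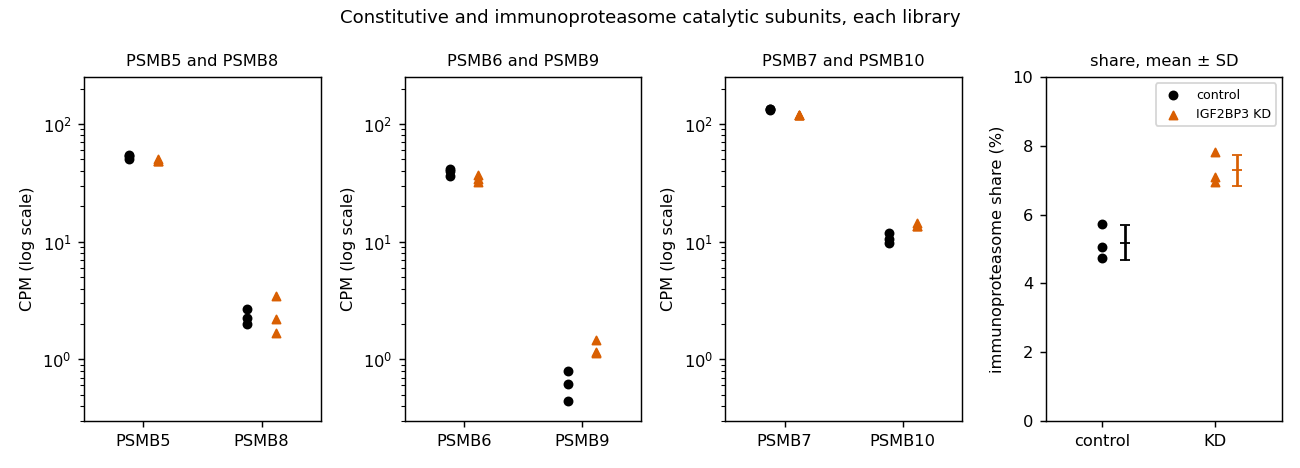
CPM (y axis, log scale) of each constitutive catalytic subunit and its inducible counterpart in each control (circles) and IGF2BP3 KD library (triangles), and, at the right, the immunoproteasome share of the catalytic level in percent with mean ± SD (n = 3). The 3 IGF2BP3 KD libraries lie at 6.96% to 7.81%, above the 3 control libraries at 4.73% to 5.74%.

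Leukocytes express the immunoproteasome without stimulation, so their markers are given beside these values. Of 4 leukocyte markers, *CD3E* had 0 counts in each library, *PTPRC* was at or below 0.127 CPM and was not tested, and *LYZ* was not called (2467 to 2700 CPM). *CD68* was higher in IGF2BP3 KD cells, at 32.8 to 37.5 CPM in control libraries and 48.7 to 54.1 CPM in IGF2BP3 KD libraries (log2 fold change 0.54, adjusted p = 1.9e-04). The 4 markers summed to 2505 to 2733 CPM in control libraries and 2542 to 2615 CPM in IGF2BP3 KD libraries, most of it *LYZ*. Without *LYZ* the sum was 32.9 to 37.6 CPM in control libraries and 48.7 to 54.1 CPM in IGF2BP3 KD libraries. Without *LYZ* and *CD68* it was at most 0.0861 CPM in control libraries and 0.127 CPM in IGF2BP3 KD libraries. Other genes overlap 85.6% of the exonic bases of *CD68* in GENCODE v44, so its counts are uncertain. The part of CD68-expressing cells in the higher *PSMB9* and *PSMB10* levels was not tested.

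The regulatory particle held 5 lower genes of 17 (29.4%) and no higher one. The shares were 19.7% and 16.6% of coding genes that averaged 10 CPM or more. Among the 6 ATPases, which form the ring that unfolds the substrate, *PSMC3* alone was lower. *PSMC3* had 167, 168 and 173 CPM in control libraries and 132, 139 and 133 CPM in IGF2BP3 KD libraries, and the libraries of the groups were well separated. The log2 fold change was -0.33 (SE 0.03, adjusted p = 4.8e-05). The other 5 ATPase genes lay between -0.13 and 0.03, and *PSMC5* at -0.13 (SE 0.04) was just outside the threshold at an adjusted p of 0.052, with no overlap between its groups.

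Of the 11 non-ATPase genes, 4 were lower. *PSMD2*, a large scaffold subunit and the member with the most CPM, had 359, 360.3 and 378 CPM in control libraries and 286, 307 and 305 CPM in IGF2BP3 KD libraries (-0.29, SE 0.03, adjusted p = 1.3e-04). *PSMD14*, the deubiquitinase that removes the ubiquitin chain, had 75.9, 71.6 and 68.3 CPM in control libraries and 58.8, 55.9 and 63.8 CPM in IGF2BP3 KD libraries (-0.27, SE 0.06, adjusted p = 6.9e-03). Both genes were lower in each IGF2BP3 KD library than in any control library. *PSMD7*, the partner with which *PSMD14* forms a dimer, had 85.5, 85.0 and 83.1 CPM in control libraries and 76.0, 69.4 and 73.5 CPM in IGF2BP3 KD libraries (-0.21, SE 0.04, adjusted p = 5.7e-03). *PSMD12*, a subunit of the lid of the particle, had 77.1, 72.1 and 73.1 CPM in control libraries and 63.1, 61.95 and 64.4 CPM in IGF2BP3 KD libraries (-0.23, SE 0.04, adjusted p = 3.7e-03). All 4 of these calls held without any 1 library. The ubiquitin receptor gene *PSMD4* had a log2 fold change of -0.04 (SE 0.04) and passed no test. *PSMD1*, the other large scaffold subunit, was just outside the threshold at -0.13 (SE 0.04, adjusted p = 0.061).

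Assembly factors held 3 lower genes of 7, among them the largest fall of any member. Of coding genes that averaged 10 CPM or more, 19.7% were lower. *PSMG1* encodes a chaperone that pairs with the product of *PSMG2* to build the alpha ring. *PSMG1* had 27.5, 29.5 and 29.96 CPM in control libraries and 17.3, 13.1 and 16.9 CPM in IGF2BP3 KD libraries. The groups were far apart, and 54.4% of the control level remained. The log2 fold change was -0.88 (SE 0.10, adjusted p = 9.2e-05), and it was -0.96 to -0.76 with any 1 library left out. On hg38 *PSMG1* lies on the minus strand of chromosome 21 from 39174769 to 39183488, and its exons overlap no other gene in GENCODE v44.

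Its partner *PSMG2* was lower by a smaller fold, with 183, 176 and 171 CPM in control libraries and 162, 154 and 159.9 CPM in IGF2BP3 KD libraries (-0.15, SE 0.04, adjusted p = 0.010). Without IGF2BP3 KD library 2 the adjusted p of *PSMG2* was 0.058, and the difference between the changes of *PSMG1* and *PSMG2* was not tested. *PSMG3* and *PSMG4*, which form the other pair of core chaperones, had -0.07 (SE 0.07) and 0.11 (SE 0.11) and passed no test. *PSMD5*, a chaperone of the ATPase ring, had 127, 117 and 129 CPM in control libraries and 100.3, 107 and 104 CPM in IGF2BP3 KD libraries (-0.26, SE 0.04, adjusted p = 1.5e-03). *PSMD9* and *PSMD10*, further chaperones of that ring, had 0.10 and -0.08 and passed no test.

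**Figure D5:**
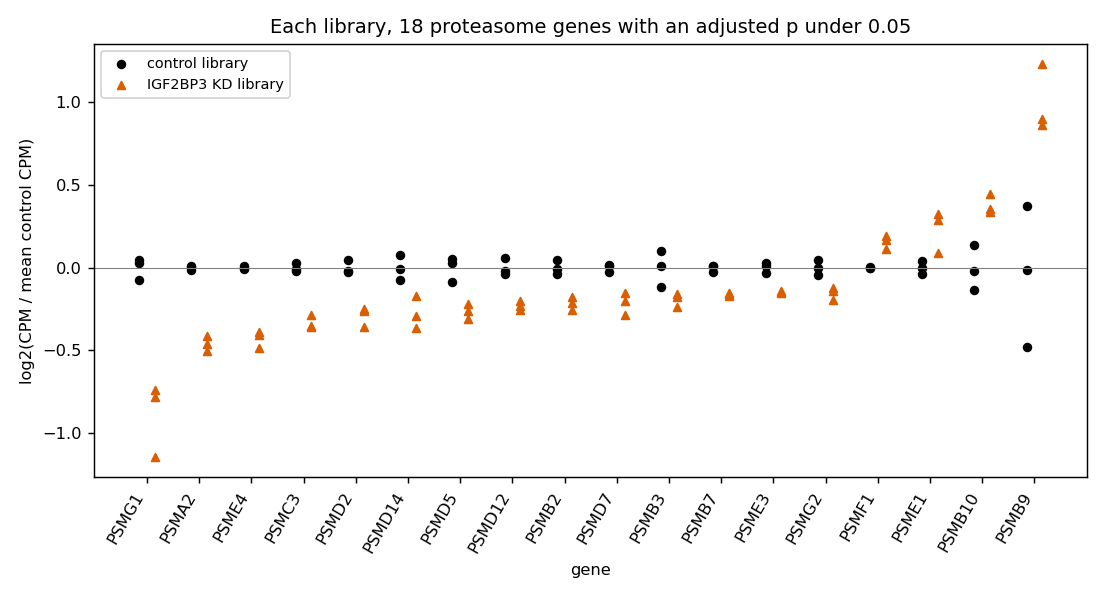
Level of each of the 18 proteasome genes with a call in each control (circles) and IGF2BP3 KD library (triangles), as log2 of CPM over the mean control CPM (y axis), ordered by change. The 3 IGF2BP3 KD libraries lie outside the range of the 3 control libraries for each of the 18 genes, with *PSMG1* lowest and *PSMB9* highest. The 18 genes were selected by the test on these same libraries, and the selection itself favours such separation. Of all genes tested, 35.8% had no overlap between the groups.

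The activators bind the ends of the core in place of the regulatory particle, and 2 of the 4 were lower and 1 was higher. The shares were 19.7% lower and 16.6% higher among coding genes that averaged 10 CPM or more. *PSME4* encodes PA200, a nuclear activator linked to the degradation of histones. *PSME4* had 112, 110.0 and 110.4 CPM in control libraries and 83.5, 84.5 and 78.95 CPM in IGF2BP3 KD libraries, without overlap (-0.43, SE 0.04, adjusted p = 2.2e-05). *PSME3*, the nuclear activator PA28 gamma, had 257, 259.8 and 249.6 CPM in control libraries and 229.7, 232 and 231 CPM in IGF2BP3 KD libraries (-0.15, SE 0.03, adjusted p = 2.9e-03). Both calls held without any 1 library.

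*PSME1* and *PSME2* encode PA28 alpha and beta, which form a single ring together and are induced by interferon gamma. *PSME1* had 76.4, 74.3 and 78.6 CPM in control libraries and 95.9, 81.3 and 93.3 CPM in IGF2BP3 KD libraries (0.24, SE 0.06, adjusted p = 0.015). Its groups did not overlap, but without control library 2, IGF2BP3 KD library 1 or IGF2BP3 KD library 3 the adjusted p was 0.072, 0.079 and 0.073. *PSME2* had 70.2, 71.4 and 73.1 CPM in control libraries and 66.1, 69.6 and 71.8 CPM in IGF2BP3 KD libraries, with overlap (-0.05, SE 0.05, adjusted p = 0.54). The difference between the changes of *PSME1* and *PSME2* was not tested. *PSMF1*, which encodes PI31, a protein first described as an inhibitor of the core, had 108, 108 and 107 CPM in control libraries and 117, 121 and 123 CPM in IGF2BP3 KD libraries (0.16, SE 0.03, adjusted p = 7.4e-03). Of the 4 higher members, *PSMF1* was the one whose call held without any 1 library.

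The groups did not overlap for 23 of the 46 tested members, compared with 35.8% of all genes tested. That share includes genes of low counts, and it was not computed for coding genes that averaged 10 CPM or more, the closer background. With DESeq2, 18 members were lower and 4 were higher, compared with 16.6% and 14.2% of the 14585 genes to which it gave an adjusted p. It kept 17 of the 18 calls, all except *PSMB9*, and added *PSMB6*, *PSMC5*, *PSMD1* and *PSMA7* as lower and *PSMA6* as higher. With any 1 library left out, 12 to 14 members were lower and 2 to 4 were higher. The count of higher members was 4 without control library 1 and 2 without each of the other 5 libraries.

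Genes that act with the proteasome but lie outside the symbol pattern numbered 39, and all were tested. Of these 9 were lower (23.1%) and 5 were higher (12.8%), and their median change was -0.05 on the log2 scale. These shares were near those of coding genes that averaged 10 CPM or more, 19.7% lower and 16.6% higher, and over all genes tested the shares were 10.6% and 9.87%. Among further subunits and assembly factors, *ADRM1*, the ubiquitin receptor of the particle, was lower (-0.24, adjusted p = 2.9e-03), and *POMP*, which completes the assembly of the core, was not called (-0.04, SE 0.04). The ubiquitin-activating enzyme gene *UBA6* fell by 0.49 on the log2 scale (SE 0.04, adjusted p = 1.4e-05), whereas *UBA1* had -0.09 (adjusted p = 0.081). Of the enzymes and partners bound to the particle, the ligase gene *UBE3C* (-0.21) and the activator gene *ZFAND5* (-0.20) were lower, at adjusted p of 3.2e-03 and 9.1e-04. Among shuttles, which carry ubiquitinated proteins to the particle, *RAD23B* was lower (-0.09), and *UBQLN2* (0.35) and *UBQLN4* (0.16) were higher. The calls of *RAD23B* and *UBQLN4* held in 1 and 3 of the 6 fits with a library left out.

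Transcription of proteasome genes is controlled by *NFE2L1*, the factor that raises it when the proteasome is inhibited, and its related factor *NFE2L2* responds to oxidative stress. *NFE2L1* had 219.6, 219.6 and 216 CPM in control libraries and 226, 216 and 232 CPM in IGF2BP3 KD libraries, with overlap (0.04, SE 0.03, adjusted p = 0.44). *NFE2L2* was lower (-0.16, SE 0.03, adjusted p = 3.5e-03), as was *VCP*, the unfoldase needed to release *NFE2L1* from the endoplasmic reticulum (-0.18, SE 0.03, adjusted p = 1.1e-03). These are mRNA levels, and the activity of either factor was not measured.

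Among 9 antigen-processing genes that work with the immunoproteasome, 3 were higher and 2 were lower. Shares over all genes tested were 9.87% higher and 10.6% lower, and for coding genes averaging 10 CPM or more 16.6% and 19.7%. *TAP1*, a subunit of the pump that moves peptides into the endoplasmic reticulum, had 10.8, 13.7 and 13.8 CPM in control libraries and 19.8, 21.5 and 20.3 CPM in IGF2BP3 KD libraries (0.69, SE 0.10, adjusted p = 5.4e-04). *TAPBP*, which holds the pump to empty class I molecules, and *B2M*, their light chain, were higher by 0.46 and 0.25 on the log2 scale (adjusted p = 4.1e-04 and 4.7e-04). The groups did not overlap for any of these 3 genes, as was the case for 35.8% of all genes tested. The peptide-trimming enzyme gene *ERAP1* was lower (-0.40, adjusted p = 0.022), a call that held in 2 of the 6 fits with a library left out. The factors *IRF1* (-0.06, SE 0.06) and *NLRC5* (0.27, SE 0.13), which activate class I genes, were not called, nor was *TAP2*, the other subunit of the pump (-0.12, SE 0.06). *PSMB9* and *TAP1* lie head to head on chromosome 6, with RefSeq start sites 488 bases apart on opposite strands.

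Promoter sequence was examined for 42 of the 48 members, from 250 bases before to 50 bases after the RefSeq start site on GRCh38.p14, on both strands. The motif of GAAA, any 2 bases and GAAA again, a core of the interferon-stimulated response element, stood in 6 of the 42 (14.3%) and in 3.65% of 27305 promoters of all genes. The 6 were *PSMA4*, *PSMB4*, *PSMB10*, *PSME1*, *PSME2* and *PSMG4*, of which 2 were higher, none was lower and 4 were not called. Shown here are the matches of both higher genes and of *PSME2*, the partner of *PSME1* that was not called, 5′ to 3′ in the direction of transcription with the motif in capitals. *PSMB10* is at chr16:67936852-67936881 (minus strand), *PSME1* at chr14:24136189-24136218 (plus strand, where the motif matches as its reverse complement) and *PSME2* at chr14:24146619-24146648 (minus strand).
PSMB10: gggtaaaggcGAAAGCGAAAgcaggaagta
PSME1: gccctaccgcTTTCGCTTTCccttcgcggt
PSME2: cctggggagtGAAAGCGAAAgcccgggcga
The 3 matches hold the same 10 bases, counted in either orientation, while their genes had log2 fold changes of 0.38, 0.24 and -0.05. The same motif did not occur in this window of *PSMB9*. Other motifs were common among members, TGACNNNGC, a core of the antioxidant response element bound by the NFE2L factors, in 13 of 42 (31.0%, compared with 13.6% of all promoters), and CCAAT, in 19 of 42 (45.2%, compared with 35.7%). Members with TGACNNNGC included 6 lower and 2 higher genes, and those with CCAAT 8 lower and 1 higher. Of all 46 tested members, 14 were lower (30.4%) and 4 were higher (8.70%). Over all genes tested, 10.6% were lower and 9.87% were higher. Calls among all genes with these motifs were not counted. These matches are descriptions of the sequence and were not tested.

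The word GATTACT in 3′ UTRs was examined because it had already been associated with lower levels in these libraries, so its share of lower genes is no independent evidence. It occurs in the 3′ UTR of 1064 of 13827 tested coding genes, of which 35.3% were lower and 6.77% were higher, whereas 13.2% were lower among genes with neither GATTACT nor the word ACACATC. Among the members, 3 of 46 held GATTACT (6.52%, compared with 7.70% of tested coding genes). They are *PSMG1*, *PSMA4* and *PSMC2*, shown as 30 bases of hg38 around the word in capitals, 5′ to 3′ on the transcript, at chr21:39175500-39175529 (minus strand), chr15:78549238-78549267 (plus strand) and chr7:103368810-103368839 (plus strand).
PSMG1: actcttttgtaGATTACTtttgggggatat
PSMA4: actgacagggcGATTACTttttgcacattg
PSMC2: tacagaaaagtGATTACTttcattttacaa
The word begins at base 72 of the 821 bases of the *PSMG1* 3′ UTR, at base 305 of 3473 in *PSMA4* and at base 767 of 1341 in *PSMC2*. *PSMG1* had the largest fall of all members, whereas *PSMA4* and *PSMC2* had log2 fold changes of 0.00 (SE 0.05) and 0.03 (SE 0.03). Of the 1064 genes with the word, 46 (4.32%) fell at least as far as *PSMG1*. *PSMA4* also held ACACATC, at 2 sites. The other 13 lower members held neither word in the 3′ UTR of the transcript examined.

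The 48 members lie on 17 chromosomes. The median GC content of exons was 47.3% for the 46 tested members, compared with 48.5% for tested coding genes. It was 44.3% for the 14 lower and 52.3% for the 4 higher members. Exons of 26 of the 48 members overlap no other gene in GENCODE v44, and 9 of the 18 calls were among these 26. The 42 annotated proteasome pseudogenes, which can share reads with their parent genes, held counts equal to 0.239% to 0.288% of the members' counts, 5 of them were tested, and none was called.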

How the data were processed

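RNA-seq libraries from 3 control and 3 IGF2BP3 KD samples of OE-19 cells were re-analysed. Poly(A) RNA was prepared with a directional kit and sequenced as paired reads of 150 bases. According to the labels and the paper's methods, the authors used fastp, aligned reads to hg38 with HISAT2 and counted them per gene with featureCounts, and they deposited these read counts without normalization. Tool versions, the annotation release and the strand setting of the counting are not given in the sources used here, so counts of overlapping genes are uncertain.

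Columns were assigned to samples by their names. Of 60480 identifiers, 132 repeated entries were left out. Library totals of 53424071 to 69989087 make counting error small except for genes of low counts such as *PSMB9*, and PCR duplicates mean that counting limits cover counting error only. Libraries of the same group differed by more than sampling noise (chi-square over degrees of freedom 9.86 to 17.6), so none was counted as a duplicate. The test was edgeR's quasi-likelihood test (version 4.0.16, R 4.3.3) with TMM scaling (filterByExpr at a count of 10 and a total of 15, glmQLFit and glmQLFTest, two-sided), fitted on the whole table without a block, with Benjamini-Hochberg adjustment over 19778 genes. A gene is called when its adjusted p is under 0.05, and every adjusted p in the text is from this fit unless another is named. The standard error (SE) is the absolute log2 fold change divided by the square root of the F statistic. With 3 libraries per group, an exact permutation test cannot give a two-sided p below 0.1, so none was run. The fitting script was tested on simulated data.

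All members are accounted for. Values in every library are given for members with a call and for the catalytic subunits with their inducible counterparts, and the 39 linked genes and the epithelial, leukocyte, fibroblast and endothelial markers were listed by hand. A gene of the linked list, which stays in its counts, and a leukocyte marker are not reported here. The members and lists were chosen with earlier results of these data known. Exon lengths, overlaps and 3′ UTRs come from GENCODE v44 on hg38, and promoters from RefSeq. Alternatives were DESeq2 1.42.0, coding genes only, 10 counts or more in each library, no filter on low counts, RLE scaling, offsets for GC content or exon length (lowess span 0.3, limma 3.58.1), the replicate number as a block, other thresholds, and each library left out in turn. Summing members with genes that overlap them on the same strand was added after the data were seen. Tables and figures were made with Python 3.11.15, numpy 2.4.6, pandas 2.3.3 and matplotlib 3.10.9.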

Additional observations from a re-analysis of the deposited data

How the results depend on the processing

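The number of lower members was 12 to 19 under the alternatives at an adjusted p under 0.05, 12 at an adjusted p under 0.01 and 21 at an unadjusted p under 0.05, compared with 14 as reported. The number of higher members, 4 as reported, was 2 to 4 with a library left out, 1 at an adjusted p under 0.01 and 2 with exon length offsets and the replicate block. Of all genes tested, 1314 were lower and 1098 higher at an adjusted p under 0.01, and 3061 were higher at an unadjusted p under 0.05. The median log2 fold change of the members, -0.083, was -0.103 with exon length offsets and -0.102 with these and the replicate block. The log2 fold change of *PSMB8* ranged from -0.25 to 0.30 with a library left out, with -0.25 without IGF2BP3 KD library 2 and -0.01 without control library 3, none past the threshold. *PSMB9* was not called with DESeq2, without the low-count filter, among coding genes only or with the block, alone or with either kind of offset. *PSMB10* was not called with GC content offsets, with or without the block, or with exon length offsets and the block. The cause of these shifts was not tested.

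Control and IGF2BP3 KD libraries share replicate numbers, but libraries of the same number did not deviate together: their correlations over 14289 genes were -0.0295, -0.0924 and -0.0771, and those of other pairs lay between -0.00739 and 0.0839. With the replicate number as a block, 14 members were lower and 3 were higher, 2026 and 1875 of all genes tested were lower and higher, *PSMB3* and *PSMB9* lost their calls and *PSMD1* gained one. Library numbers were used as labelled, and the correlations cannot show whether any was swapped.

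Of 564 values of single named genes under the alternatives, 511 kept their direction and side of the threshold, 47 fell short of it, 4 passed it and 2, both of *PSMB8*, turned. Depth limits *PSMB8* and *PSMB9* most, and annotated exons that the cells do not use limit the comparison of levels per kb.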

Other observations

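Several genes carry symbols that begin like those of proteasome genes but fall outside the pattern. *PSMC3IP*, which encodes a recombination factor that acts in meiosis and homologous repair and is no part of the proteasome, had 844, 779 and 883 counts in control libraries and 440, 415 and 560 counts in IGF2BP3 KD libraries. Its groups did not overlap, and the log2 fold change was -0.70 (SE 0.14, adjusted p = 3.9e-03, edgeR). *PSME3IP1*, whose product binds the PA28 gamma activator, had a log2 fold change of -0.09 (SE 0.05) and was not called. The antisense genes *PSMA3-AS1* (0.03), *PSMG3-AS1* (0.04) and *PSMD6-AS2* (-0.13) were not called.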
